A study of Mus musculus with 12 samples.

Results

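The Hox genes of positional identity were read across 12 RNA-seq libraries of mouse bone marrow mesenchymal stem cells (MSCs). They were taken by symbol, as the protein-coding genes named Hoxa, Hoxb, Hoxc or Hoxd followed by a number. This gave 39 of the 54532 genes in the table, and 38 of them are reported here. These genes and the other gene lists were chosen with earlier results of these data known. The cells came from marrow of femurs, tibiae and humeri of 4-week-old C57BL/6 mice and were used at passage 3. Control cells were from Chd7fl/fl mice and the others from Prx1-cre;Chd7fl/fl mice, so that both genotypes carried the floxed alleles and only the latter carried the Cre. Both genotypes were induced for 5 days in osteogenic medium (50 µM ascorbic acid, 10 mM β-glycerophosphate and 10 nM dexamethasone) or in adipogenic medium (1 µM dexamethasone, 0.5 µM isobutylmethylxanthine and 10 µg/ml insulin), which made 4 groups of 3 libraries. The Prx1 promoter drives Cre in early limb mesenchyme, so cells of other origin in the marrow keep Chd7, and forelimb and hindlimb bones were pooled.

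Hox genes encode homeodomain transcription factors that lie in 4 clusters, and their order along the chromosome follows their order of expression along the body axis, with group 1 most anterior and group 13 most posterior. In the limb, the posterior genes of the HoxA and HoxD clusters pattern the segments from shoulder to digits, and posterior HoxC genes are known for hindlimb expression. Adult mesenchymal cells keep much of the Hox code of the site they came from. Chd7 is an ATP-dependent chromatin remodeler of the CHD family, and the design sets cells in which it was targeted beside controls in each of the media.

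Chd7 was read first, as the targeted gene. Its FPKM (fragments per kilobase of transcript, scaled to library depth) was 2.64, 2.67 and 2.77 in the control osteogenic libraries and 2.03, 2.35 and 2.28 in the knockout osteogenic libraries, a difference of -0.20 ± 0.078 on the log2(FPKM + 1) scale (SE; adjusted p = 0.168). It was 2.26, 1.81 and 2.23 in the control adipogenic libraries and 2.03, 2.35 and 2.48 in those labelled knockout (0.09 ± 0.078, SE; adjusted p = 0.44). The osteogenic groups did not overlap, with the knockout lower, but the adipogenic groups did overlap. A gene total does not resolve the deleted exon, so this reading is a weak check of the labels, and in adipogenic medium "knockout" below means the libraries labelled so.

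The libraries held 17496343 to 21099588 recovered fragments on genes. All 13 mesenchymal stromal markers were expressed, with sums of 1324 to 1975 FPKM over the 12 libraries. All 12 macrophage markers were expressed too, and none was at 0. Their sums were 14624 to 15128 in control osteogenic, 16127 to 16590 in knockout osteogenic, 9997 to 19716 in control adipogenic and 8103 to 9686 in knockout adipogenic libraries. The second control adipogenic library held the lowest of the control sums and correlated with the other control adipogenic libraries less (mean r 0.973) than with the control osteogenic ones (0.990). In every library the macrophage sum was above the mesenchymal stromal sum. In bulk RNA, fewer cells of a type and less RNA per cell cannot be told apart, and the cells that gave the Hox reads were not measured. The labels do not say whether the 3 libraries of a group came from separate animals, so p-values measure the spread between these libraries only.

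The Hox reads of these cultures came mostly from HoxA and HoxC. Of the 38 genes, 20 reached the minimum set for expression, an FPKM of 0.5 or more in 3 or more of the 12 libraries. They were 8 of the 10 HoxA genes, all 9 HoxC genes, 2 of the 10 HoxB genes and 1 of the 9 HoxD genes. Relative to all 38, the posterior genes of groups 9 to 13 gave most of the summed FPKM in every group, at 53.3% ± 2.04 (SD, n = 3) in control osteogenic, 59.7% ± 1.86 in knockout osteogenic, 58.1% ± 2.13 in control adipogenic and 62.5% ± 1.43 in knockout adipogenic libraries.

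**Figure D1:**
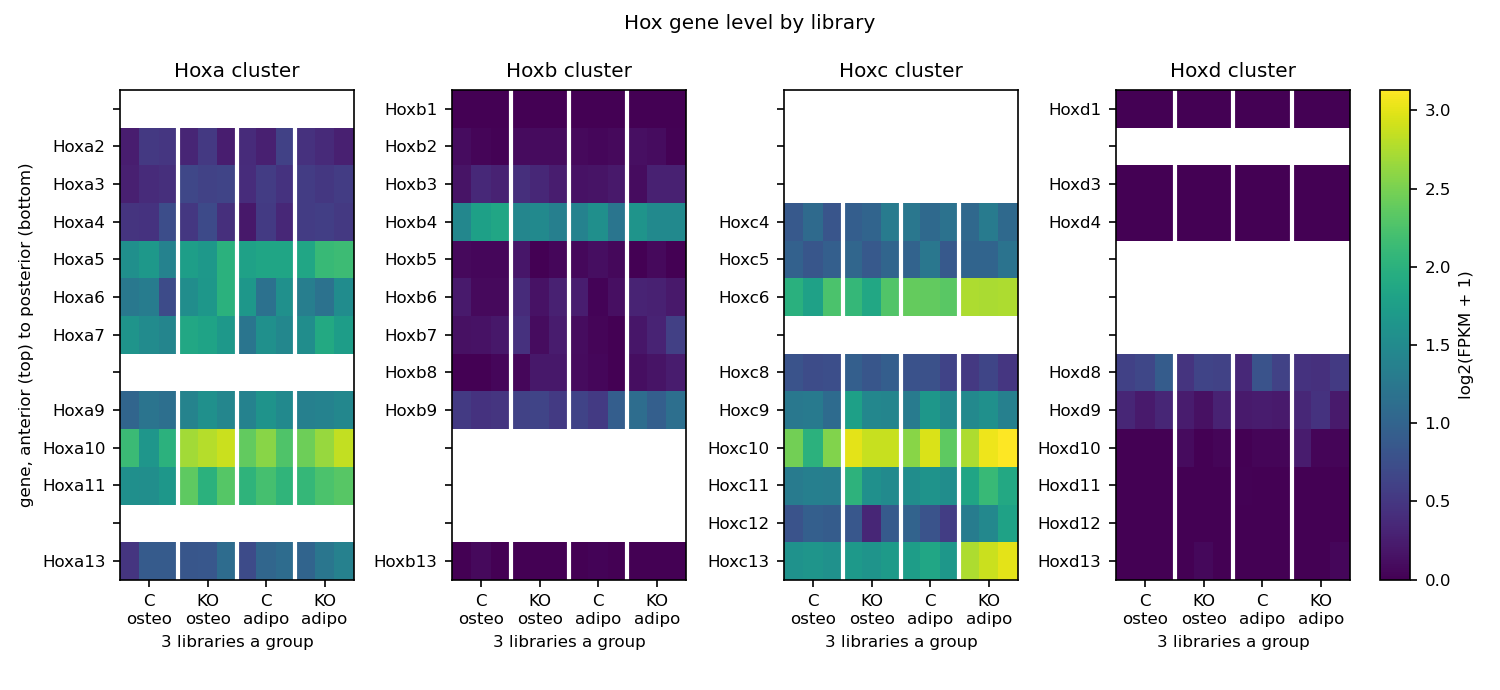
Heat map of log2(FPKM + 1) for the 38 Hox genes, 1 panel a cluster, from anterior at the top to posterior at the bottom, with 3 libraries in each of the 4 groups as columns and white where no gene is shown for that group number. HoxA and HoxC are filled along most of their length, while HoxB shows Hoxb4 and Hoxb9 and HoxD shows little beyond Hoxd8.

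In the HoxA cluster (chr6:52162417-52260880, minus strand, GRCm38), the anterior genes were low. Over the 12 libraries Hoxa2 (0.186 to 0.522 FPKM), Hoxa3 (0.211 to 0.592) and Hoxa4 (0.153 to 0.674) stayed near or under 0.5. Levels were higher in the centre, where Hoxa5 lay at 1.63 to 3.45, Hoxa6 at 0.647 to 3.02 and Hoxa7 at 1.33 to 2.73. They were highest in Hoxa10 (2.13 to 6.36), with Hoxa11 (1.92 to 4.11) beside it. Hoxa9 lay at 1.04 to 2.05, and Hoxa13, whose protein patterns the digits, at 0.401 to 1.6.

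In the HoxC cluster (chr15:102921103-103036852, plus strand), Hoxc10 was the highest of the 38 genes in every group, at 4.11 ± 0.953 (SD, n = 3) in control osteogenic, 6.56 ± 0.434 in knockout osteogenic, 5.28 ± 1.37 in control adipogenic and 6.93 ± 1.1 in knockout adipogenic libraries. The library values of the next gene overlapped with its own: Hoxc6 had 3.06 ± 0.637 in control osteogenic libraries, Hoxa10 had 5.93 ± 0.433 in knockout osteogenic and 4.34 ± 0.569 in control adipogenic libraries, and Hoxc13 had 6.37 ± 0.639 in knockout adipogenic libraries. Hoxc10 shares 8.7% of its exonic bases with Hoxc5 on the same strand, where reads could count for either. Hoxc6, a gene of the thoracic region, lay at 2.47 to 5.72 FPKM. Hoxc4 (0.771 to 1.48), Hoxc5 (0.79 to 1.36) and Hoxc8 (0.409 to 0.924) were low. Further back, Hoxc9 lay at 1.14 to 2.43, Hoxc11 at 1.47 to 3.33, Hoxc12 at 0.268 to 2.5 and Hoxc13 at 2.0 to 7.01.

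The HoxB cluster (chr11:96194316-96368256, plus strand) was nearly silent apart from Hoxb4, a gene known from blood stem cells, which lay at 1.32 to 2.62 FPKM, and Hoxb9 at 0.37 to 1.21. Hoxb3 (0.0752 to 0.34), Hoxb6 (0.0243 to 0.312), Hoxb7 (0 to 0.511) and Hoxb8 (0 to 0.18) were detected at low levels. Hoxb2 (0.0151 to 0.0916) and Hoxb5 (0 to 0.14) were lower, Hoxb13 gave 3 fragments in all 12 libraries together, and Hoxb1 was listed at 0 throughout.

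The HoxD cluster (chr2:74668310-74765142, plus strand) had only Hoxd8 (0.288 to 0.887 FPKM) past the minimum, with Hoxd9 at 0.104 to 0.373. The posterior genes that pattern the limb segments were close to 0: Hoxd10 lay at 0 to 0.176, Hoxd11 gave 1 fragment and Hoxd13 gave 4 fragments over the 12 libraries. Hoxd1, Hoxd3, Hoxd4 and Hoxd12 were listed at 0 in every library. For these and Hoxb1, 3 fragments would have read as 0.0342 to 0.0994 FPKM, a floor that covers counting error only. Hoxd3 and Hoxd4 share 62.3% and 52.3% of their exonic bases with overlapping genes on the same strand, each other among them, so their zeros could come from how fragments were assigned, which was not tested.

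Several genes sat at the edge of the minimum. Hoxa3 passed with 3 libraries, all of them knockout osteogenic, and Hoxb9 and Hoxd8 with 7 each. Hoxa4 reached it in 2 libraries and Hoxa2 and Hoxb7 in 1. With a minimum of 0.1 FPKM 27 genes passed, and with a minimum of 1 FPKM 16 passed.

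**Figure D2:**
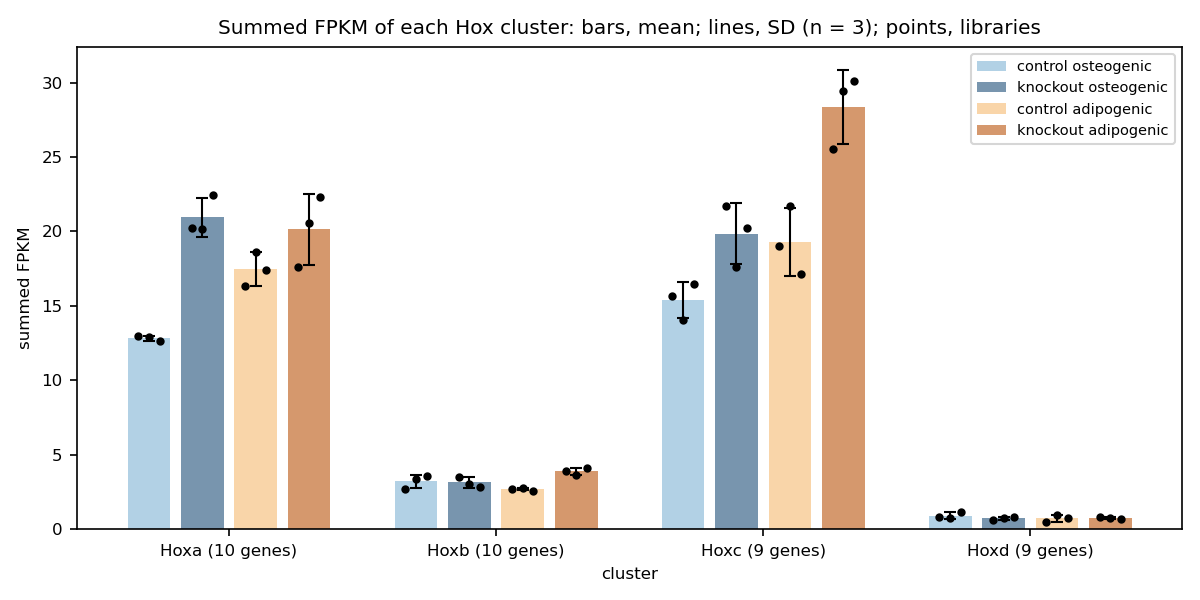
Summed FPKM of the genes of each Hox cluster (y axis), with bars for the mean of each of the 4 groups, lines for the SD (n = 3) and points for libraries. Control first, HoxA has means of 12.8 and 21.0 in osteogenic and 17.5 and 20.1 in adipogenic libraries. HoxC has means of 15.4 and 19.8 in osteogenic and 19.3 and 28.4 in adipogenic libraries, while HoxB and HoxD stay under 5.

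The sum over all 38 genes was 32.4 ± 1.38 FPKM (SD, n = 3) in control osteogenic, 44.6 ± 2.7 in knockout osteogenic, 40.1 ± 3.38 in control adipogenic and 53.1 ± 4.82 in knockout adipogenic libraries. The knockout lay above its control without overlap in both media. As a share of the summed mesenchymal stromal markers, the Hox sum was 2.30% ± 0.144 and 2.83% ± 0.0193 in the osteogenic groups, and 2.23% ± 0.346 and 2.89% ± 0.234 in the adipogenic groups, control first. These groups did not overlap in either medium, but in adipogenic medium the highest control (2.62%) lay close to the lowest knockout (2.64%). By cluster, HoxA made up 39.7% ± 2.09 and 47.0% ± 2.62 of the Hox sum in the osteogenic groups and 43.5% ± 2.09 and 37.9% ± 1.1 in the adipogenic groups, control first. HoxC made up 47.6% ± 1.99 and 44.4% ± 2.39 in the osteogenic and 48.0% ± 2.35 and 53.4% ± 0.757 in the adipogenic groups. These sums are descriptions, without a test.

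In osteogenic medium, knockout against control, 4 of the 20 Hox genes passed the test (limma, adjusted p under 0.05 over all 14877 genes tested), and all 4 were HoxA genes that rose: Hoxa3, Hoxa9, Hoxa10 and Hoxa11. Of all genes tested, 7.91% were called and 4.40% were called higher. The median change of the 20 was 0.22 on the log2(FPKM + 1) scale, against -0.01 for all genes, and 17 of the 20 were above 0. In 10 of the 20 every knockout library lay above every control library, and over all genes that share was 20.0%. Hoxa3 is in each of these counts, although it reached the minimum in the knockout osteogenic libraries only. It could therefore enter the test only by being high there.

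Hoxa10, whose protein acts in the upper limb segment and the uterus, had 3.41, 2.13 and 3.03 FPKM in control and 5.5, 5.92 and 6.36 in knockout osteogenic libraries. The groups did not overlap, and the means stood 2.08-fold apart. The fitted difference was 0.86 ± 0.14 (SE; adjusted p = 0.0052).

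Hoxa11, which acts in the segment of the forearm and shank, had 1.95, 1.92 and 2.15 in control and 4.11, 3.0 and 3.94 in knockout osteogenic libraries, again without overlap. Its means stood 1.83-fold apart, with a fitted difference of 0.63 ± 0.10 (SE; adjusted p = 0.00454). A share of 35.0% of its exonic bases lies opposite the antisense gene Hoxa11os, and the library kit was not stated to keep strand, so reads of both genes cannot be told apart there. Hoxa11os itself had 0.523 to 0.664 in control and 0.768 to 0.797 in knockout libraries and did not pass (adjusted p = 0.545).

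Hoxa9, also known from blood progenitors, had 1.04, 1.3 and 1.21 in control and 1.64, 1.97 and 1.71 in knockout osteogenic libraries, with no overlap and a difference of 0.35 ± 0.079 (SE; adjusted p = 0.0257). Hoxa3 had 0.211, 0.307 and 0.339 against 0.592, 0.533 and 0.557 (0.28 ± 0.076, SE; adjusted p = 0.0496). A share of 33.4% of its exonic bases overlaps other genes, and since it passed the filter through the higher group alone, it could enter the test only by being high there. The calls of Hoxa10 and Hoxa11 held when any 1 of the 6 libraries was left out (adjusted p up to 0.0299 and 0.0264), whereas Hoxa3 lost its call without any of the 6 (up to 0.165) and Hoxa9 without 5 of the 6 (up to 0.0971).

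Among the rest of HoxA, Hoxa6 had 1.39, 1.5 and 0.647 in control and 1.91, 2.15 and 3.02 in knockout libraries, without overlap but with a wide spread (adjusted p = 0.0755). Hoxa5, Hoxa7 and Hoxa13 had differences of 0.27, 0.27 and 0.17 and did not pass, though Hoxa7 did not overlap between the groups. Of the HoxC genes, Hoxc10 had 4.51, 3.02 and 4.8 against 7.06, 6.28 and 6.33, also without overlap (difference 0.58 ± 0.18, SE; adjusted p = 0.077). Hoxc8, Hoxc9 and Hoxc11 differed by 0.15, 0.34 and 0.36 (adjusted p = 0.319, 0.119 and 0.121). None of them passed, although none overlapped between the groups. Hoxc13 had 2.02, 2.1 and 2.0 against 2.22, 2.07 and 2.25, a difference of 0.06.

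Cell type markers moved in the same comparison, where 7.91% of all genes were called. Of 13 mesenchymal stromal markers 5 rose and none fell, and of 12 macrophage markers 1 rose and 2 fell. Of 4 endothelial markers tested 3 rose (Cdh5 by 1.20, Emcn by 1.06 and Pecam1 by 0.80). Endothelial markers summed to 2.64 to 2.86 FPKM in control and 7.59 to 8.28 in knockout libraries. Of the 8 osteoblast markers 1 rose and 1 fell, and of the 4 adipocyte markers tested 2 fell. Osteoblast markers summed to 1864 to 2160 FPKM in control and 2709 to 2951 in knockout libraries. All 8 adipocyte markers summed to 252 to 265 in control and 182 to 198 in knockout libraries. Their part in the Hox differences was not tested.

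The promoters of the neighbouring genes Hoxa9, Hoxa10 and Hoxa11, which rose together in osteogenic medium, are shown with those of Hoxd11, the silent paralog of Hoxa11, and of Hoxb1, listed at 0. Each run is the 250 bases before a transcription start, 5′ to 3′ on the gene's strand, from RefSeq on GRCm38.p6. Capitals mark matches on either strand to TGATNNAT, a composite site of PBX and HOX proteins, or to TATAAA, the TATA box.
Hoxa9, chr6:52227371-52227620, minus strand: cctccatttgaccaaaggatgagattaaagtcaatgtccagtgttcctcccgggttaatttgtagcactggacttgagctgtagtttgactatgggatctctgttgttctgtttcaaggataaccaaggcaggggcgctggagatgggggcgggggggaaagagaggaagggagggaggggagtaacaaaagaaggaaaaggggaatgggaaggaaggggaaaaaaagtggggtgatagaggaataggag
Hoxa10, outer start, chr6:52240855-52241104, minus strand: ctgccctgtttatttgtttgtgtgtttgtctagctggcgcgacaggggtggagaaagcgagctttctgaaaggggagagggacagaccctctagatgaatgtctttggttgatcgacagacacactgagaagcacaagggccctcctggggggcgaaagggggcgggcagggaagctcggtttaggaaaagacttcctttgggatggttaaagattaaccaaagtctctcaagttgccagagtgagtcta
Hoxa10, inner start, chr6:52234940-52235189, minus strand: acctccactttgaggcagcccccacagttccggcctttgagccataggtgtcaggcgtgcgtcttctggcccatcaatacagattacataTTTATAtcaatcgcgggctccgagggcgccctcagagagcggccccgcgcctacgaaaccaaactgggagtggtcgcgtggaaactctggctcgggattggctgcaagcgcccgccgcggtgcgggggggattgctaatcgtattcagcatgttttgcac
Hoxa11, chr6:52245811-52246060, minus strand: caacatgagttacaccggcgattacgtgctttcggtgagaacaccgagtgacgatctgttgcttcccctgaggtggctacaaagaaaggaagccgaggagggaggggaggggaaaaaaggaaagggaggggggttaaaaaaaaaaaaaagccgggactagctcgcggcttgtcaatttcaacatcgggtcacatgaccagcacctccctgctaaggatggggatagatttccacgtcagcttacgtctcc
Hoxd11, inner start, chr2:74682073-74682322, plus strand: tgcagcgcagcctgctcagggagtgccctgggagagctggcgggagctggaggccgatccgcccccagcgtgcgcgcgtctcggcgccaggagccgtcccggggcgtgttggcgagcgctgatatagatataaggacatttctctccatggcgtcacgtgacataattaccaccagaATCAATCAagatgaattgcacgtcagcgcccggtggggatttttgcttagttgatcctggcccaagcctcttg
Hoxb1, chr11:96365508-96365757, plus strand: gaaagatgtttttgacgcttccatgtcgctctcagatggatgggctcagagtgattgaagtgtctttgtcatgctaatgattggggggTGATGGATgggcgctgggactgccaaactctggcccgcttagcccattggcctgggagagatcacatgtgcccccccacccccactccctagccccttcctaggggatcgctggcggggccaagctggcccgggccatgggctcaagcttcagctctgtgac

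Windows were at hand for 22 of the 38 genes, 24 in all because Hoxa10 and Hoxd11 have a pair of starts. They cover 11 of the 20 expressed genes. TGATNNAT was found in 4 of the 24, those of Hoxa2, Hoxb1, Hoxb8 and the inner start of Hoxd11, none of which belongs to an expressed gene. With 12 windows of expressed genes, this absence is too small a sample to read. The windows shown of Hoxb1 and Hoxd11 are among the 4, while the outer start of Hoxd11, not shown, held no match. Over all 32851 promoter windows of that length, 7.68% held it. TATAAA was found in 4 of the 24, the inner start of Hoxa10 among them, against 12.4% of all. The windows of expressed and other Hox genes had medians of 58.6% and 57.4% G and C and of 13.5 and 12.0 CpG pairs (12 windows each). These matches are letters only, and no binding was measured.

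In adipogenic medium, knockout against control, 5 of the 20 genes passed and all 5 rose: Hoxb9, Hoxc6, Hoxc11, Hoxc12 and Hoxc13. None of them was called in osteogenic medium. The background was high, with 29.4% of all genes called and 15.0% called higher, so the 25.0% of tested Hox genes that were called is near the background. The median change of the 20 was 0.18 against -0.01 for all genes, with 14 of the 20 above 0. In 6 of the 20 the knockout lay above the control without overlap, against 19.2% over all genes. Of all the calls in this comparison, 51.0% were higher, a share that became 78.0% when libraries were scaled to the same sum of FPKM (TPM), and under that scaling 6 Hox genes were called, all higher.

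Hoxc13, at the posterior end of HoxC (chr15:102921103-102928814) and known for hair and nail formation, changed most. It had 2.35, 2.62 and 2.16 FPKM in control and 5.73, 6.36 and 7.01 in knockout adipogenic libraries. The 3 knockout values lay far above the others, and all 9 remaining libraries of the study were between 2.0 and 2.62. The means stood 2.68-fold apart, with a difference of 1.12 ± 0.073 (SE; adjusted p = 6.37e-06). Of the summed Hox FPKM, Hoxc13 made up 5.91% ± 0.206 in control and 12.0% ± 0.287 in knockout libraries.

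Its neighbour Hoxc12 had 1.0, 0.741 and 0.479 in control and 1.5, 1.75 and 2.5 in knockout libraries (0.74 ± 0.17, SE; adjusted p = 0.0108). The groups did not overlap, on 41 fragments in control and 112 in knockout adipogenic libraries, summed over each group. Hoxc11, next along the cluster, had 1.9, 2.06 and 1.89 against 2.58, 3.33 and 2.71 (0.39 ± 0.13, SE; adjusted p = 0.0408). The means of Hoxc12 stood 2.58-fold apart, close to those of Hoxc13, and those of Hoxc11 1.47-fold. No order among these 3 genes was tested.

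Hoxc10, beside them, had 4.94, 6.78 and 4.11 against 5.69, 7.34 and 7.77, and the groups overlapped (adjusted p = 0.161). Without the second control adipogenic library, which stood apart and was the highest control for Hoxc10, it was called (difference 0.52, adjusted p = 0.0260) and so was Hoxa7 (0.39, adjusted p = 0.0232). Without that library 6 Hox genes were called, and over all genes 6882 were called in place of 4381.

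Further forward, Hoxc6 had 4.25, 4.19 and 4.05 in control and 5.71, 5.66 and 5.72 in knockout libraries, tight values in both groups (0.38 ± 0.12, SE; adjusted p = 0.0343). Hoxb9 had 0.544, 0.445 and 0.911 against 1.18, 0.927 and 1.21 (0.37 ± 0.11, SE; adjusted p = 0.0256). Neither gene overlapped between the groups. The calls of Hoxc12 and Hoxc13 held with any 1 of the 6 libraries left out (adjusted p up to 0.0458 and 9.27e-05). Hoxb9 and Hoxc11 lost their call without 4 of the 6 (up to 0.0889 and 0.140), and Hoxc6 without 5 of the 6 (up to 0.0916).

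The HoxA genes that rose in osteogenic medium did not pass here. Hoxa10 had 4.22, 4.95 and 3.83 against 4.43, 5.26 and 6.19 (0.23 ± 0.14, SE; adjusted p = 0.236), and Hoxa11 had 3.11, 3.61 and 3.13 against 3.26, 3.76 and 4.0 (0.12 ± 0.10, SE; adjusted p = 0.382). Both pairs of groups overlapped. Hoxa9 had 1.61, 2.05 and 1.81 against 1.57, 1.62 and 1.74, a difference of -0.09. Hoxb4, the main HoxB gene, had 1.32 to 1.96 against 1.8 to 2.08, and Hoxd8 had 0.288 to 0.749 against 0.348 to 0.441, and neither passed in either medium.

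Marker lists moved in this comparison too, where the background of calls was higher, at 29.4% of all genes. Of 12 macrophage markers 7 fell and 2 rose, and their sums, given above, were lower in every knockout library than in any control library. Of 13 mesenchymal stromal markers 4 rose and 3 fell, and of 4 endothelial markers tested 2 rose. Of the 8 osteoblast markers 5 rose, and of the 4 adipocyte markers tested 2 rose. Their part in the Hox differences was not tested.

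**Figure D3:**
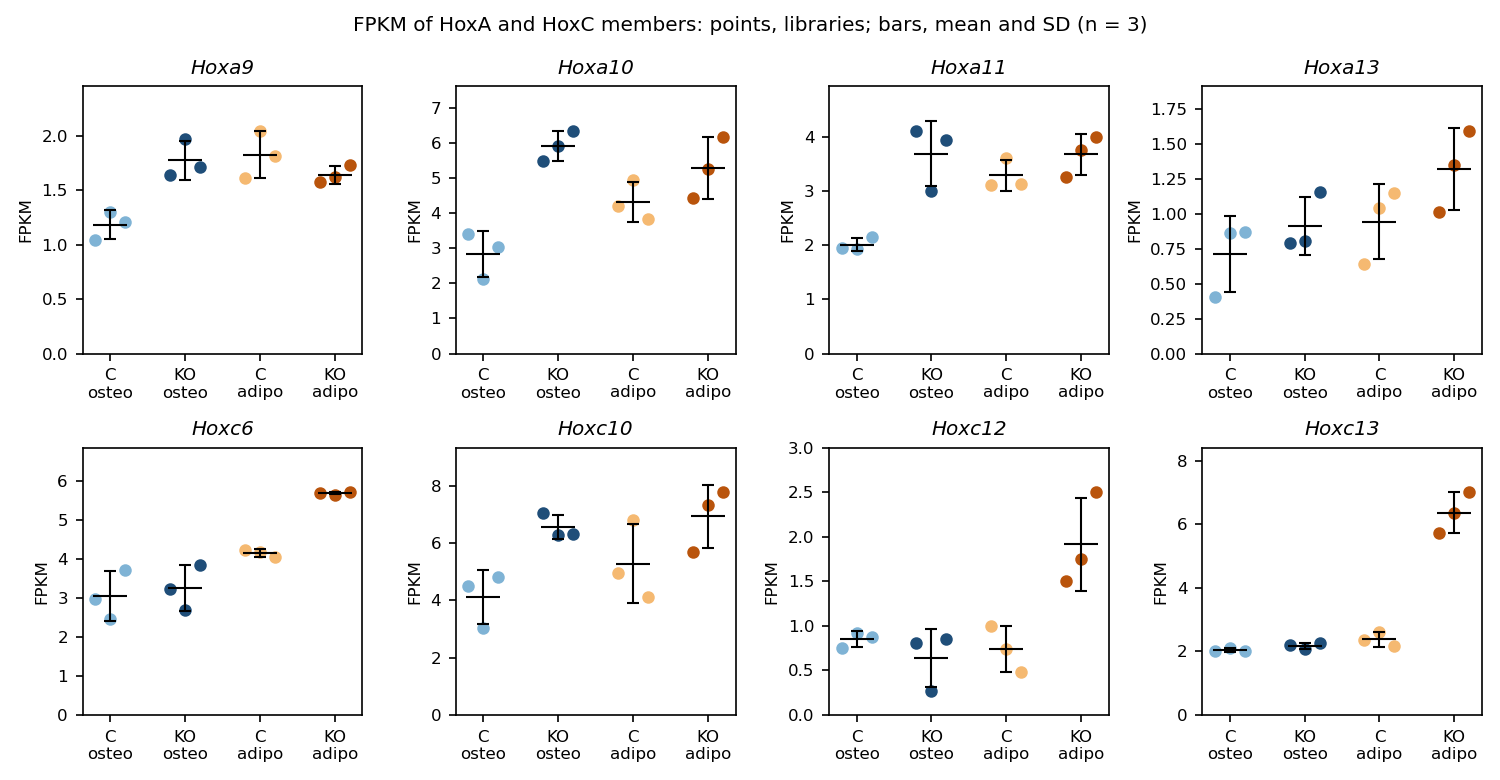
FPKM of 8 HoxA and HoxC genes (y axis, from 0) in the 4 groups (C control, KO knockout), with points for libraries and bars for mean and SD (n = 3). Hoxc13 and Hoxc12 stand apart in knockout adipogenic libraries, while control osteogenic libraries hold the lowest Hoxa9, Hoxa10 and Hoxa11.

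The difference between the media was tested itself, as the interaction of genotype and medium. Of the 20 genes 4 passed, where 18.0% of all genes did. For Hoxc13 the knockout effect was larger in adipogenic medium by 1.06 ± 0.10 (SE; adjusted p = 1.44e-04) and for Hoxc12 by 0.93 ± 0.25 (SE; adjusted p = 0.0282). For Hoxa9 and Hoxa11 the effect was larger in osteogenic medium, with interaction terms of -0.44 ± 0.11 and -0.51 ± 0.14 (SE; adjusted p = 0.0229 and 0.0335). For Hoxa10 the term was -0.62 ± 0.20 and missed the threshold (adjusted p = 0.054). The terms of Hoxb9, Hoxc6 and Hoxc11 were 0.26, 0.30 and 0.03 and were not called (adjusted p = 0.256, 0.227 and 0.931). Under TPM scaling the terms of Hoxa9 and Hoxa11 were no longer called (adjusted p = 0.159 and 0.195), and 2 genes were called, both in the adipogenic direction. Over all genes, the share of calls in that direction was 52.9%, and 74.3% under TPM scaling. The Hoxc13 term was called under each alternative tried and without any 1 of the 12 libraries. Those of Hoxa9, Hoxc12 and Hoxa11 lost their call without 3, 5 and 8 of the 12 (adjusted p up to 0.0577, 0.0647 and 0.0816).

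**Figure D4:**
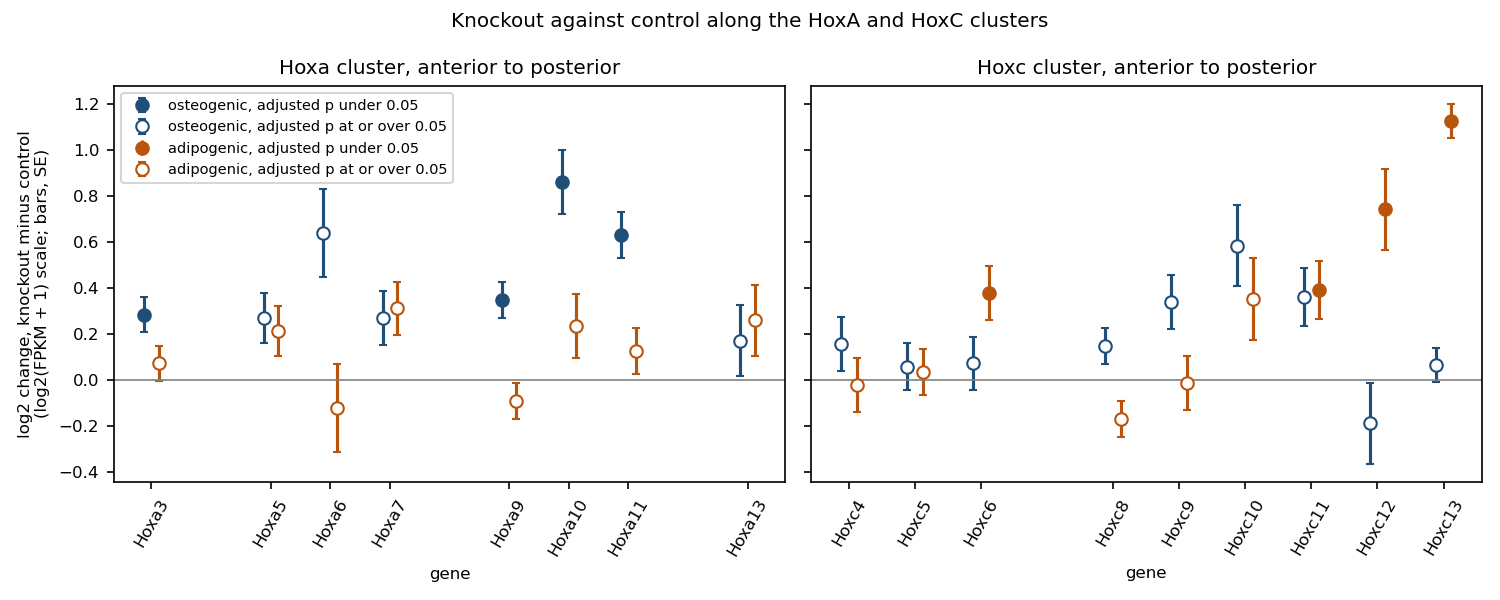
Knockout minus control on the log2(FPKM + 1) scale (y axis; bars, SE) for the tested genes of the HoxA and HoxC clusters from anterior to posterior, in osteogenic (blue) and adipogenic (orange) medium, filled where the adjusted p was under 0.05. The osteogenic changes peak at Hoxa10 with 0.86, and the adipogenic changes are 0.39 in Hoxc11, 0.74 in Hoxc12 and 1.12 in Hoxc13, on a scale that understates changes of low genes.

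Between the media, in control cells, 3 of the 20 genes passed and all 3 were higher in adipogenic medium: Hoxa9, Hoxa10 and Hoxa11. Of all genes 20.0% were called and 9.26% were called higher. Hoxa9 differed by 0.37 ± 0.079 (SE; adjusted p = 0.0116), Hoxa10 by 0.48 ± 0.14 (SE; adjusted p = 0.0386) and Hoxa11 by 0.51 ± 0.10 (SE; adjusted p = 0.00862). The comparison of genotypes in osteogenic medium shares the control osteogenic libraries with this one, and there the 3 genes differed by 0.35, 0.86 and 0.63. Hoxa10 lost its call between media without 5 of the 6 libraries (adjusted p up to 0.122). Under TPM scaling none of the 20 was called by limma, with 4 at an unadjusted p under 0.05. Without that scaling, limma voom on recovered fragments called 3. Under TPM scaling adjusted p was 0.0858, 0.145 and 0.0551 for these genes in the same order, while the share of higher calls over all genes went from 46.2% to 31.5%. Cell type markers moved too. Of 13 mesenchymal stromal markers 6 were higher in adipogenic medium and none lower, and of 12 macrophage markers 1 was higher and 4 lower. Of 8 osteoblast markers 3 were higher and 2 lower, and of 4 adipocyte markers tested 3 were lower. All 8 adipocyte markers summed to 252 to 265 FPKM in control osteogenic and 112 to 169 in control adipogenic libraries. In knockout cells the sums were 182 to 198 and 174 to 222, osteogenic first. The markers thus do not bear out the adipogenic label in control cells, and the media below and above are those of the labels. Of 4 endothelial markers tested 1 was higher. The part of these markers in the Hox differences was not tested.

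In knockout cells 5 of the 20 passed between the media, where 25.0% of all genes were called and 12.4% were called higher. Higher in adipogenic medium were Hoxc13 by 1.21 ± 0.073 (SE; adjusted p = 3.91e-06), Hoxc12 by 0.83 ± 0.17 (SE; adjusted p = 0.00652), Hoxc6 by 0.66 ± 0.12 (SE; adjusted p = 0.00255) and Hoxb9 by 0.47 ± 0.11 (SE; adjusted p = 0.00968). Hoxc8, a gene of the trunk, was lower, at 0.432, 0.581 and 0.409 against 0.924, 0.781 and 0.911 (-0.35 ± 0.078, SE; adjusted p = 0.0097). These 5 calls held with any 1 of the 6 libraries left out. Hoxa9, Hoxa10 and Hoxa11 differed between the media by -0.07, -0.15 and 0.00 in knockout cells and did not pass. Over all genes, 49.7% of the calls were higher, and 65.0% under TPM scaling. Of 8 osteoblast markers 7 were higher in adipogenic medium and 1 lower, and of 4 adipocyte markers tested 2 were higher. Of 13 mesenchymal stromal markers 5 were higher and 3 lower, and of 12 macrophage markers 3 were lower. Of 4 endothelial markers tested 1 was higher. Here too, the part of these markers was not tested.

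Genes that work with the Hox proteins were read from lists. Of the 9 TALE cofactors, homeodomain proteins that bind DNA beside Hox proteins, 7 were tested. None was called in osteogenic medium by limma or by limma voom (1 at an unadjusted p under 0.05). There 7.91% of all genes were called, so with 7 tested this absence is too small a sample to read. In adipogenic medium Meis2 rose (by 0.29, adjusted p = 0.0246) and Pbx2 fell (-0.16, adjusted p = 0.0226). Pbx2 (11.1 to 14.0 FPKM) and Meis3 (5.62 to 6.43) were the most abundant, while Meis1 (0.47 to 0.673) and Meis2 (0.384 to 0.912) were low. Meis2 reached 0.5 FPKM only in the 3 knockout adipogenic libraries, so, like Hoxa3, it could enter the test only by being high there. In that medium 29.4% of all genes were called, so the 2 calls among 7 cofactors are near the background. The median change of the 7 was 0.02 in osteogenic and 0.01 in adipogenic medium.

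Of 38 other transcription factors of limb and axial position, 15 were tested. This list too was chosen with earlier results of these data known. In osteogenic medium 8 rose with the knockout and none fell, where 7.91% of all genes were called and 4.40% called higher, with the largest changes in Irx3 (6.73, 5.36 and 5.76 against 13.3, 13.7 and 13.8, difference 1.08, adjusted p = 0.00602) and Irx5 (0.89, adjusted p = 0.00545). These act in the early limb bud, and Shox2, which acts in the proximal limb, rose by 0.54 (adjusted p = 0.00206), as did Emx2 by 0.44 (adjusted p = 0.00978). In adipogenic medium 5 rose and none fell, where 29.4% of all genes were called and 15.0% called higher, so that the count is near the background of calls. They were led by Tbx15 (11.7, 10.4 and 12.1 against 14.7, 19.1 and 18.3, 0.56, adjusted p = 0.00103) and Tbx2 (0.55, adjusted p = 0.0248), with Prrx1 (0.39) and Msx1 (0.31) behind. The median change of the 15 was 0.37 in osteogenic and 0.18 in adipogenic medium, against -0.01 over all genes in both.

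The limb of origin was read from 3 genes. Tbx5, the forelimb factor, was at 0 to 0.02 FPKM in the 12 libraries. Pitx1, the hindlimb factor, lay at 2.15 to 5.35, and Tbx4, also of the hindlimb, at 0.0813 to 0.501. Tbx5 was near 0 in all groups although the humerus, a forelimb bone, was among the sources of the marrow.

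Polycomb proteins keep Hox genes silent and Trithorax proteins keep them active. Of 31 Polycomb group genes, all tested, 1 was called in osteogenic medium, Ezh1, which fell (-0.26, adjusted p = 0.0139). In that medium 7.91% of all genes were called, so a count this small is not read as a result about the group. In adipogenic medium 2 rose and 7 fell, among them Phf19 (-0.47, adjusted p = 0.0433) and Suz12 (-0.34, adjusted p = 8.20e-04), a core subunit of the complex that methylates H3K27. With 29.4% of all genes called, the 9 calls among 31 are at the background. Of 16 genes of the Trithorax group and H3K27 demethylases none was called in osteogenic medium by limma or limma voom (5 at an unadjusted p under 0.05). The share over all genes there was the same 7.91%. In adipogenic medium, where 29.4% of all genes were called, Setd1b (-0.48, adjusted p = 0.0104) and the demethylase Kdm6a (-0.27, adjusted p = 0.0252) fell. The median change was 0.04 and -0.03 for the Polycomb group, and -0.11 and -0.07 for the Trithorax group, osteogenic medium first.

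Genes and noncoding RNAs around the clusters were read last. Of 18 genes beside the clusters 11 were tested. None was called in osteogenic medium by limma or limma voom (1 at an unadjusted p under 0.05). There 7.91% of all genes were called, so with 11 tested this absence is too small a sample to read. In adipogenic medium Skap2, beside HoxA, fell (-0.47, adjusted p = 0.00263), as did Hnrnpa1 near HoxC (-0.38, adjusted p = 8.51e-05), while Smug1, also near HoxC, rose (0.21, adjusted p = 0.0226). These 3 calls among 11 are near the background of 29.4%. The median changes of the 11 were 0.07 and -0.08 in osteogenic and adipogenic medium. Of 18 noncoding RNAs 4 were tested and none was called in any comparison by limma or limma voom, or at an unadjusted p under 0.05. Of all genes, 7.91% to 29.4% were called by limma in the comparisons. Their median changes were 0.06 and 0.12. Hotairm1, at the anterior end of HoxA, lay at 0.594 to 2.33 FPKM, and Hotair, a transcript of HoxC between Hoxc11 and Hoxc12, at 0.0303 to 0.315. Hottip, beyond Hoxa13, lay at 0 to 0.0381.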

How the data were processed

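RNA of 12 MSC libraries was compared in 4 groups of 3, taken from the sample labels. The authors deposited FPKM values, 1 column a library. Per the labels' processing notes, Bowtie 0.12.2 and mm9 were used. The paper lists a NEBNext Ultra kit, HISAT2 and Ballgown, and the use of strand is not given in the sources used here. Symbols and coordinates come from GENCODE M21 on GRCm38, by gene identifier. It names 54495 of the 54532 identifiers, and the fragments below were recovered with its exon lengths. The deposited values therefore follow a gene model like it, and the mm9 note was not reconciled with this. No columns were left unmapped.

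From low values, 98.2 to 98.4% of which were whole fragments (under 30 fragments, tolerance 0.02), 17496343 to 21099588 fragments a library were recovered on genes. Floors use 3 fragments.

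The 14877 genes at an FPKM of 0.5 or more in 3 or more libraries were tested with limma 3.58.1 (R 4.3.3) on log2(FPKM + 1), which understates changes of low genes, with a trend, 4 group means and Benjamini-Hochberg adjustment at 0.05. The fit was checked on simulated data with the same spread set for every library, which does not cover a library that stands apart. Differences carry SEs and values SDs. Named were the Hox genes, Chd7, Tbx5, Tbx4, Pitx1 and, of each other list, up to 4 called members with the largest change in a comparison. Of the Hox genes, 1 is not reported here and is left out of their counts and sums. The Hox genes and lists were chosen with earlier results of these data known. Alternatives were other pseudocounts, filters, scalings and models, the replicate block, and each library left out. Figures and counts were made in Python 3.11.15 with pandas 2.3.3, numpy 2.4.6 and matplotlib 3.10.9.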

Additional observations from a re-analysis of the deposited data

Results flagged for a closer look

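The knockout effect differed between the media by a test of the interaction in 4 of the 20 Hox genes tested. Of all genes 18.0% passed, so this count is near the background. The term, adipogenic minus osteogenic on the log2(FPKM + 1) scale, was 1.06 for Hoxc13, 0.93 for Hoxc12, -0.44 for Hoxa9 and -0.51 for Hoxa11.

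The same test passed for 6 of the 15 other position factors, where 18.0% of all genes passed: 0.45 for Tbx15, -0.91 for Irx5, -0.90 for Irx3, -0.67 for Shox2, -0.57 for Emx2 and -0.44 for Gli3. Tbx15 and Gli3 are named here after their values were seen. Groups of 3 libraries were too small for a test of single high or low libraries.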

How the results depend on the processing

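Of the 21 calls of Hox genes over the 5 comparisons, none changed direction. Under each alternative that tested the gene, and with each library left out, 10 held. They were Hoxa10 and Hoxa11 in osteogenic medium, Hoxc12 and Hoxc13 in adipogenic medium, the interaction of Hoxc13, and the 5 calls between media in knockout cells. Hoxb9 and Hoxc8 were not tested with a minimum of 1 FPKM, so that alternative does not bear on their calls. Of 331 values under alternatives, 262 kept the call and 69 lost it.

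TPM scaling, which gives each library an equal FPKM sum, moved the number of Hox genes called from 4 to 2 for the knockout in osteogenic medium and for the interaction and from 3 to 0 between media in control cells. It shifted the median of all genes to 0.13 for the knockout in adipogenic medium and to 0.14 for the interaction, and the median of the 20 Hox genes to 0.31 and 0.07. Without the filter 1 Hox gene was called for the interaction and 3 for the knockout in adipogenic medium. With a minimum of 1 FPKM 3 were called between media in knockout cells. With only the 6 libraries compared 1 was called between media in control cells and 3 for the knockout in adipogenic medium, and over all genes 3366 were called for the knockout in osteogenic medium (1177 with all 12 libraries), 1625 in adipogenic medium (4381) and 474 between media in control cells (2982). Under TPM 535 genes were called for the knockout in osteogenic medium. With a library left out, the genes called over all were 536 to 686 for the knockout in osteogenic and 2803 to 6882 in adipogenic medium, 1808 to 5673 for the interaction, and 1330 to 6446 and 2541 to 2918 between media in control and knockout cells. Leaving out 1 library gave 2 to 3 Hox genes for the knockout in osteogenic medium, 2 to 6 in adipogenic medium, 1 to 6 for the interaction, 2 to 4 between media in control and 5 to 6 in knockout cells. In adipogenic medium 6 came without the second control library, 2 without the first control or the third knockout library, and 3 without the third control or the second knockout library. For the interaction 6 came without the second control adipogenic library, 1 without the second knockout adipogenic library, and 2 without control osteogenic replicate 2 or 3 or control adipogenic replicate 3. The number of Hox genes expressed stayed between 19 and 21 under TPM scaling or with a library left out. The causes were not tested.

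With the replicate block, the counts were 3, 4, 3, 3 and 5 in the order of the 5 comparisons. Under it Hoxa3 in osteogenic medium, Hoxc11 in adipogenic medium, the interaction of Hoxa11 and Hoxa10 between media in control cells were not called, while Hoxc6 was called between media in control cells (adjusted p = 0.0396), so an equal count need not hold the same genes. The deviations of libraries with equal numbers correlated with r from -0.238 to 0.427, highest for replicates 1 and 2 of the adipogenic comparison of genotypes, and not every library correlated best with its own number. The correlation was not over 0.1 in every pair and the labels name no shared source, so the numbers were not taken to pair the libraries. At 17496343 to 21099588 fragments a library, genes such as Hoxc12, with 5 to 49 fragments over the 12 libraries, carry a counting error that limits the test.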
